A study of Danio rerio with 6 samples.

Results

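The 4 genes described here are the IL-17 cytokines IL17A/F1, IL17C and IL17D and the receptor IL17RD, measured by SYBR Green real-time PCR in whole zebrafish (Danio rerio) embryos. They were chosen by the symbol of the plate layout and are 4 of the 326 gene wells on each plate, 1 well per gene. The embryos, taken at 24 hours post fertilization, carried an injected plasmid, either ptGFP1 alone (control) or ptGFP1-NOD1 (NOD1). Each group has 3 biological replicates, 1 plate each. NOD1 is an intracellular receptor for fragments of bacterial peptidoglycan. Both groups received the ptGFP1 backbone, and each RNA came from a pool of whole embryos. The promoter that drives the insert, the species of the insert and whether replicates came from separate injection sessions are not given in the sources used here.

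IL-17 cytokines are secreted dimers with a cystine-knot fold that act on barrier and stromal cells, where their receptors recruit the adaptor ACT1 and TRAF6 and switch on NF-kB, MAP kinases and C/EBP factors. The downstream genes include chemokines that draw neutrophils, inflammatory cytokines and antimicrobial peptides. Zebrafish IL17A/F1 is a homologue of the mammalian pair IL-17A and IL-17F, which T cells and innate lymphocytes secrete. IL17C is in mammals an epithelial cytokine, and IL17D is in mammals expressed mainly outside the immune system. IL17RD, also called Sef, was described in zebrafish as a feedback inhibitor of FGF signalling and is in mammals also a component of IL-17 receptor complexes. At this age zebrafish embryos have primitive myeloid cells but no mature T cells.

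By accession, the 4 wells matched the RefSeq genes il17a/f1, il17c, il17d and il17rd of assembly GRCz12tu. In that annotation il17a/f1 overlaps its paralog il17a/f2. The primers were not used here, so whether the IL17A/F1 assay separates the paralogs is not known. The paralogs il17a/f2 and il17a/f3 and the receptor subunits of the IL17RA and IL17RC type were not analysed here.

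The nod1 well crossed threshold at 28.42, 28.69 and 28.46 cycles in control and at 21.42, 19.88 and 20.46 cycles in NOD1 plates, so the group labels matched the injected gene on all 6 plates. Ct, the threshold cycle, is where the fluorescence of a well passes a set level. Wells with more template have a lower Ct, and 1 cycle is a doubling if amplification is perfect. Levels are given relative to a plate's own reference genes ACTB, GAPDH and Tuba1, as their mean Ct minus the gene's Ct. Each unit of this relative level is 1 cycle, or 1 on the log2 scale, and more transcript gives a higher value. That reference mean was 17.61, 17.75 and 17.48 cycles in control and 18.22, 18.39 and 18.2 in NOD1 plates, later by 0.65 cycles in NOD1 (two-sided exact permutation p = 0.1, which is the lowest possible with 3 against 3). Every relative level in NOD1 embryos therefore carries this shift, and the median difference over the 319 genes tested was 0.32 on the log2 scale. The control plates were run on 2 days and the NOD1 plates on 1 later day, and the run therefore cannot be told apart from the group. With whole embryos, more cells of a type and more RNA per cell cannot be told apart either.

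All 4 genes were higher in NOD1 embryos relative to the reference genes, and their relative levels did not overlap between the groups. IL17A/F1 had the largest difference, 8.08-fold on this scale, IL17C was 2.68-fold higher, IL17D 2.09-fold and the receptor IL17RD 1.72-fold (limma over all 319 genes, Benjamini-Hochberg adjusted p = 0.000678, 0.0111, 0.00451 and 0.0168, n = 3 per group). The test took genes under 35 cycles in all 3 plates of at least 1 group. IL17C, IL17D and IL17RD met this in both groups, but IL17A/F1 only in NOD1, the group where it was higher, so its p is no independent evidence of a difference. Of all genes tested, 37.0% were called higher and 15.4% lower at the same threshold, adjusted p under 0.05, or 52.4% in either direction. Groups did not overlap in the direction higher in NOD1 for 42.3% of genes on this scale, and in either direction for 63.9%. The 4 calls are therefore to be read against a plate on which calls in this direction were common.

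IL17A/F1, the homologue of the T-cell cytokines IL-17A and IL-17F, was close to the limit of detection in control embryos. Its wells crossed threshold at 34.34, 35.08 and 35.37 cycles in the 3 control plates, so that 2 of them lay over the limit of 35 cycles and were set to 35. In NOD1 embryos its wells crossed at 32.3, 32.44 and 32.52 cycles. The earliest control well was thus still 1.8 cycles later than the latest NOD1 well, without any scaling, and no NOD1 well was over 35 cycles.

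Relative to the reference genes, IL17A/F1 was at -16.73, -17.25 and -17.52 in control and at -14.08, -14.05 and -14.32 in NOD1 plates. The control mean was -17.16 ± 0.40 (SD, n = 3) and the NOD1 mean -14.15 ± 0.15. Of the control values, 2 are the reference mean of the plate minus the limit of 35. The control SD, and the SE and intervals that follow, therefore do not give the measured spread of this gene between control plates. The difference was 3.01 ± 0.23 (SE) on the log2 scale, with a 95% interval of 2.45 to 3.58. The 8.08-fold difference (95% interval 5.46 to 12.0) depends on how the 2 late control wells are treated. With the recorded late cycles kept (a ceiling of 40) it was 8.98-fold, and with values over 35 missing, which leaves 1 control well, it was 5.97-fold. Without control replicate 3 it was 7.15-fold. SYBR Green reports any double-stranded product, and melting curves were not used here, so whether the 2 late control wells hold the specific product was not tested.

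**Figure D1:**
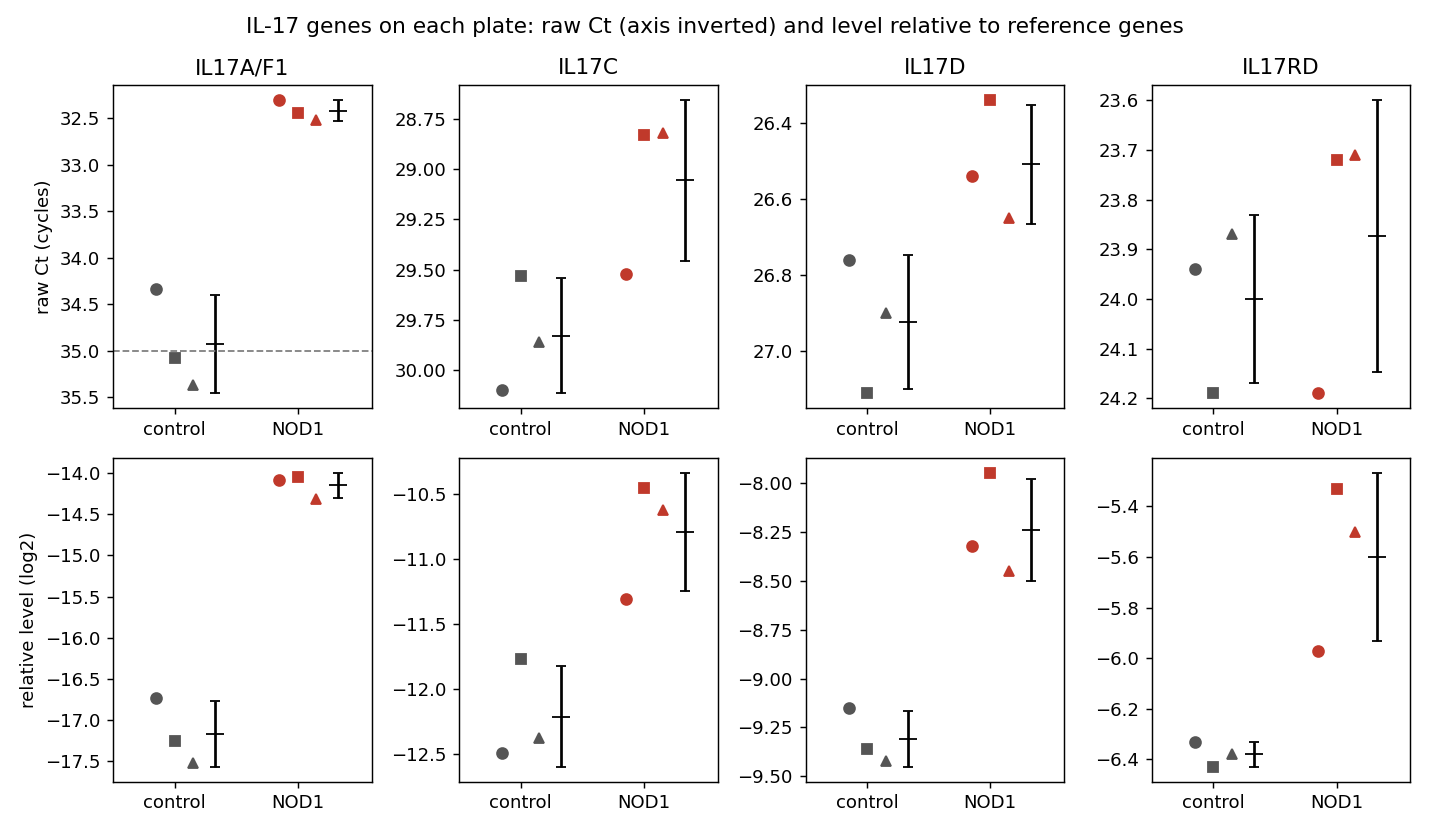
Raw Ct (top, in cycles, axis inverted so that more template is up, dashed line at 35 cycles) and level relative to ACTB, GAPDH and Tuba1 (bottom, log2 scale) of the 4 IL-17 genes, 1 point per plate, with circles, squares and triangles for replicates 1, 2 and 3, and mean ± SD of the plotted values beside them. Each panel has its own vertical range. In the bottom panel of IL17A/F1, 2 control values have their Ct set to 35. Relative levels do not overlap between control and NOD1 for any of the 4 genes, whereas the raw Ct of IL17RD does overlap.

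IL17C, an epithelial IL-17 cytokine in mammals, was readily measured in both groups. Its wells crossed at 30.1, 29.53 and 29.86 cycles in control and at 29.52, 28.83 and 28.82 cycles in NOD1 plates. On raw Ct the groups were separated by only 0.0027 cycles, between control replicate 2 and NOD1 replicate 1. Relative to the reference genes its level was -12.49, -11.77 and -12.38 in control and -11.31, -10.45 and -10.62 in NOD1. Control replicate 2 was the highest of its group and NOD1 replicate 1 the lowest of its group. The difference was 1.42 ± 0.30 (SE) on the log2 scale, with a 95% interval of 0.67 to 2.17. The call was lost with quantile scaling (0.13, adjusted p = 0.678) and with cyclic loess scaling (0.23, adjusted p = 0.432). Quantile scaling gives all plates the same distribution of Ct, and cyclic loess removes trends with Ct between pairs of plates.

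IL17D, which in mammals is expressed mainly outside the immune system, was the earliest of the 3 cytokine wells. It crossed at 26.76, 27.11 and 26.9 cycles in control and at 26.54, 26.34 and 26.65 cycles in NOD1 plates. The raw Ct values did not overlap, with a gap of 0.10 cycles. Its relative level was -9.15, -9.36 and -9.42 in control and -8.32, -7.95 and -8.45 in NOD1 plates. The difference was 1.07 ± 0.17 (SE) on the log2 scale, with a 95% interval of 0.64 to 1.49. On raw Ct and with quantile scaling it was 0.41 each and did not pass (adjusted p = 0.0593 and 0.0936).

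IL17RD, the Sef receptor, was the most readily amplified of the 4 wells and had the smallest difference. It crossed at 23.94, 24.19 and 23.87 cycles in control and at 24.19, 23.72 and 23.71 cycles in NOD1 plates. NOD1 replicate 1 was as late as the latest control well, and the raw Ct of the groups overlapped (mean difference -0.13 cycles, exact permutation p = 0.6, two-sided). Relative to the reference genes it was at -6.33, -6.43 and -6.38 in control and at -5.97, -5.33 and -5.5 in NOD1. The control plates were tight on this scale, with an SD of 0.05, against 0.33 in NOD1.

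The difference of IL17RD was 0.78 ± 0.19 (SE) on the log2 scale, with a 95% interval of 0.31 to 1.25. Leaving out control replicate 2 (0.76, adjusted p = 0.0504) or control replicate 3 (0.78, adjusted p = 0.0529) ended the call. It was also lost on raw Ct (0.13, adjusted p = 0.579), with the global mean (0.17, adjusted p = 0.357) and with the global median (0.26, adjusted p = 0.228). It held with quantile scaling (0.79, adjusted p = 0.00524) and with cyclic loess scaling (0.89, adjusted p = 0.00402).

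The order of Ct was the same on all 6 plates, with IL17RD first, then IL17D, IL17C and IL17A/F1. In control plates IL17D came 2.92 ± 0.11 (SD) cycles after IL17RD, IL17C 2.91 ± 0.46 cycles after IL17D and IL17A/F1 5.10 ± 0.75 cycles after IL17C. Each step exceeded its spread between plates. The amplification efficiencies are not given in the sources used here, so these steps order the wells and are not ratios of transcript number.

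The position of a well among all wells of its own plate needs no reference gene. By Ct, IL17A/F1 ranked 315, 315 and 319 from the earliest of 326 gene wells in control and 306, 309 and 307 in NOD1 plates. IL17C ranked 269, 250 and 261 in control and 267, 248 and 252 in NOD1, which overlap. IL17D ranked 169, 178 and 178 in control and 160, 154 and 171 in NOD1, which also overlap. IL17RD moved from 81, 83 and 82 to 61, 45 and 48. By rank, therefore, IL17A/F1 and IL17RD were earlier in every NOD1 plate, as were 23.5% of all genes, whereas IL17C and IL17D overlapped between the groups. On raw Ct, 3 of the 4 genes, all but IL17RD, were earlier in every NOD1 plate, against 24.5% of all genes. These counts cannot show an excess. IL17A/F1 met the filter only through the NOD1 plates, with 2 control wells over 35 cycles. The raw gaps of IL17C and IL17D were only 0.0027 and 0.1 cycles. All 3 genes lay in the 2 latest quartiles of control Ct, described below. There 50.6% and 68.8% of genes were called higher relative to the reference genes.

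**Figure D2:**
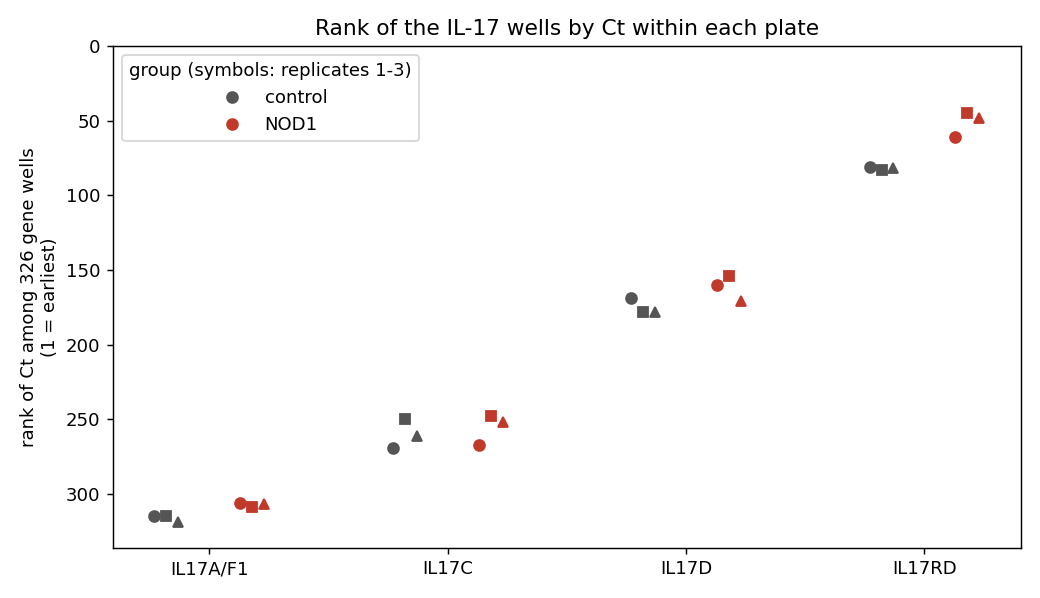
Rank of each IL-17 well by raw Ct among the 326 gene wells of its plate (vertical axis, 1 is the earliest well, axis inverted), 1 point per plate, grey for control and red for NOD1, with circles, squares and triangles for replicates 1, 2 and 3. IL17RD lies at 81 to 83 in control and 45 to 61 in NOD1, whereas the ranks of IL17C and IL17D overlap between the groups.

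IL17A/F1 had an adjusted p under 0.05 under the main scaling and each of 10 other scalings, although it entered each of these tests through the NOD1 plates, with 2 control wells set to 35. Its difference ranged from 1.07 with cyclic loess and 1.24 with quantile scaling to 3.50 with 18S rRNA added to the reference genes (adjusted p = 0.0445, 0.0327 and 0.000234). The 18S rRNA well was itself lower in NOD1 in the main limma fit (-1.95, adjusted p = 0.0007). Adding it to the reference genes therefore raises the difference of every gene by construction. IL17C, IL17D and IL17RD each lost the call under 2 or 3 of the 10, and none of the 4 genes was lower in NOD1 under any of them. Of all genes called higher, 40 of 118 (33.9%) kept the call under all 10. The scalings moved the median of all genes from 0.32 to between -0.34 (raw Ct) and 0.80 (18S rRNA added). Relative to the median of all genes in the main scaling, the differences were 2.70 for IL17A/F1, 1.11 for IL17C, 0.75 for IL17D and 0.47 for IL17RD.

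**Figure D3:**
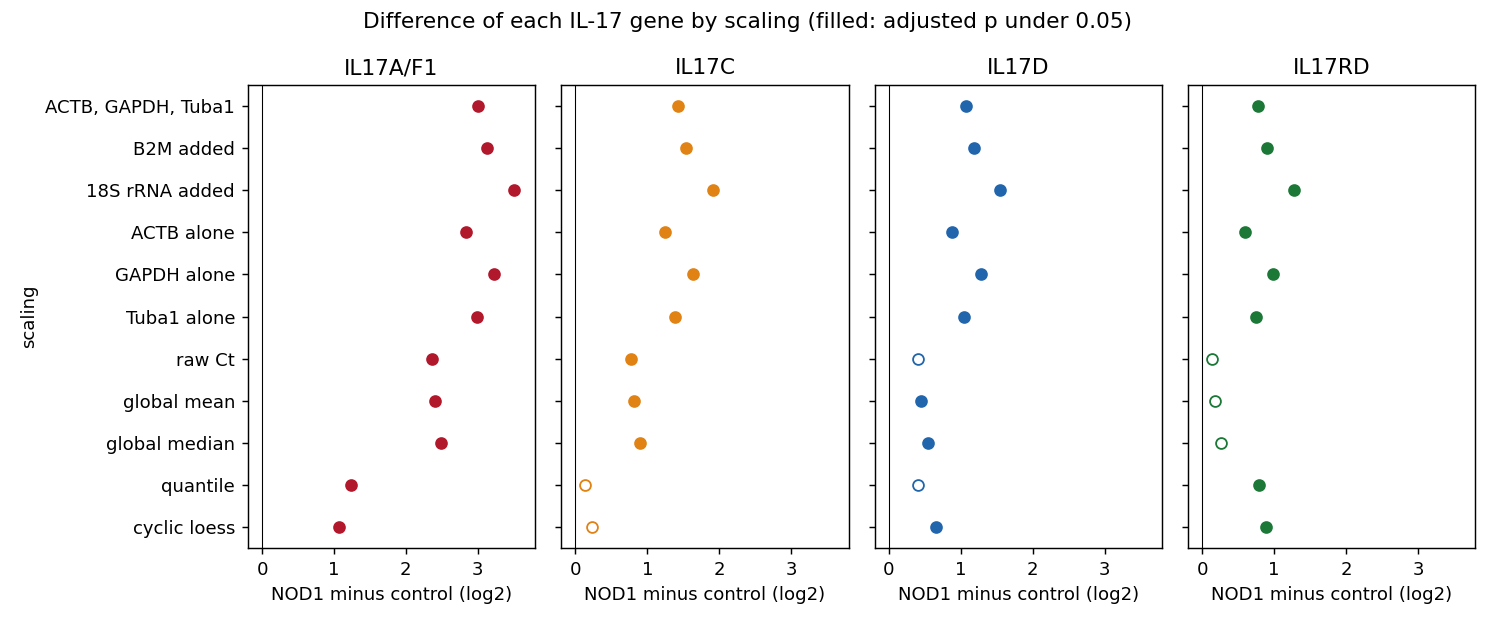
Difference between NOD1 and control (horizontal axis, log2 scale) of the 4 IL-17 genes under the main scaling by ACTB, GAPDH and Tuba1 (top line) and 10 other scalings, filled where the adjusted p was under 0.05. IL17A/F1 is filled under all 11 settings and is smallest with quantile and cyclic loess scaling, where IL17C lies at 0.13 and 0.23.

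On this plate the difference between the groups went with how late a well was. With the tested genes in quartiles of control Ct, the earliest quartile (7.21 to 23.9 cycles) had a median difference of -0.14, and 8.75% of its genes were called higher. In the second (24.0 to 26.4 cycles), which holds IL17RD, the median was -0.09 and 16 of 80 genes were called higher. In the third (26.4 to 29.3 cycles), which holds IL17D, the median was 0.82 with 50.6% higher. In the latest quartile (from 29.3 cycles), which holds IL17C and IL17A/F1, it was 1.62 with 68.8% higher.

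Set within its own quartile, IL17RD had the 11th largest difference of 80 genes, IL17A/F1 the 9th of 80, IL17D the 34th of 79 and IL17C the 47th of 80. The rises of IL17C and IL17D were thus near the middle of their quartiles, while that of IL17RD was in the upper part of its quartile. IL17C, IL17D and IL17RD, with a mean control Ct of 29.8, 26.9 and 24.0, lay early in their quartiles. The other genes of these quartiles were mostly later. These ranks are therefore not limited to wells of similar Ct. The ranks of IL17A/F1, here and over all genes, cannot show that its rise stood out. It was tested only through its NOD1 wells, and 2 of its control wells were set to 35. Its quartile also begins at 29.3 cycles, whereas its own mean control Ct was 34.8, so the comparison is not limited to wells of similar Ct. Over all 319 genes the ranks were 14 for IL17A/F1, 77 for IL17C, 101 for IL17D and 121 for IL17RD. The control Ct that sets the quartiles also enters the difference, and the part of the Ct range in these results was not tested.

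**Figure D4:**
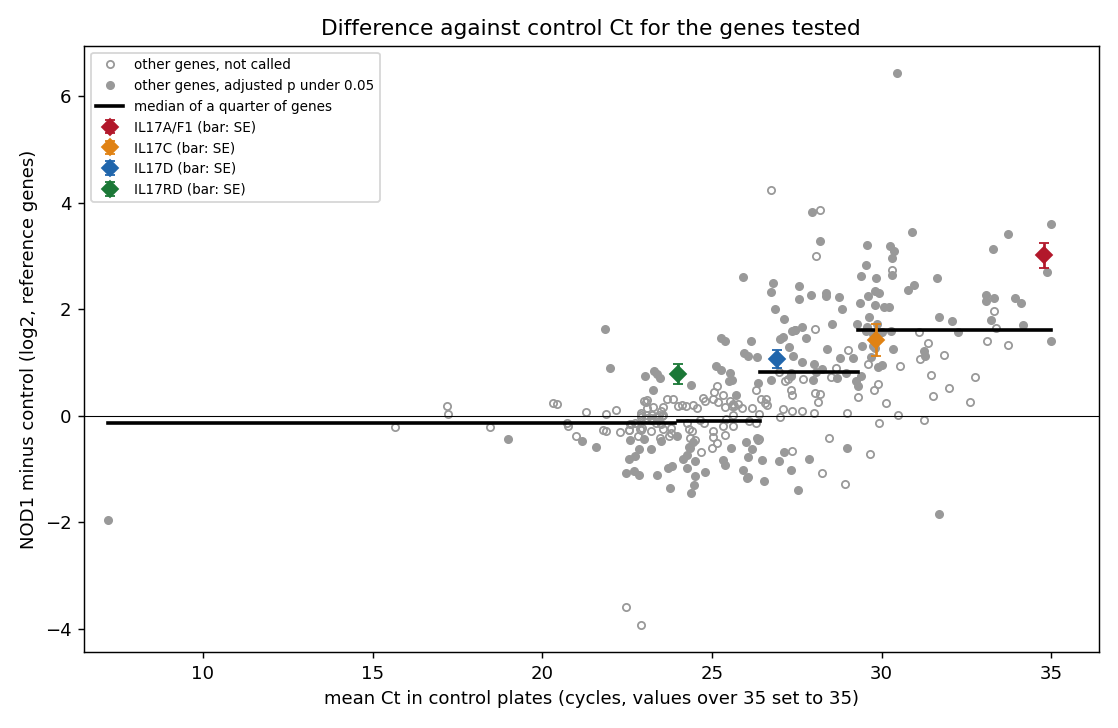
Difference between NOD1 and control (vertical axis, log2 scale relative to the reference genes) against mean control Ct (horizontal axis, cycles) for the genes tested, with the 4 IL-17 genes as coloured diamonds with SE and black lines at the median of each quartile of genes. The nod1 well, at 8.59, is beyond the axis. IL17A/F1 and IL17RD lie above the line of their quartile by more than IL17D does, and IL17C lies just below its line.

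Differences between 2 wells of a plate also need no reference gene, and 6 pairs of the 4 genes were compared. IL17A/F1 came 4.24, 5.55 and 5.52 cycles after IL17C in control and 2.78, 3.60 and 3.70 cycles after it in NOD1 plates. The groups did not overlap, and the distance changed by -1.74 cycles. The distance of IL17A/F1 to IL17D shortened from 8.01 ± 0.45 (SD, n = 3) to 5.91 ± 0.17 cycles, and that to IL17RD from 10.93 ± 0.56 to 8.55 ± 0.38, again without overlap. These values use the recorded late cycles and were not tested. With the 2 late control wells set to 35, the distances changed by -1.59, -1.95 and -2.23 cycles. The share of all gene pairs of the plate without overlap was not computed, here or for the pairs below. The median difference was -0.09 in the quartile of IL17RD, 0.82 in that of IL17D and 1.62 in that of IL17C and IL17A/F1. Later wells thus tended to gain on earlier ones across the whole plate.

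The other 3 pairs had all wells under 35 cycles and were tested with an exact permutation test, adjusted over the 3, where 3 plates against 3 cannot give a raw p below 0.1. IL17C against IL17RD changed by -0.64 cycles without overlap (exact p = 0.1, adjusted 0.30). IL17C against IL17D changed by -0.36 cycles (exact p = 0.5, adjusted 0.50) and IL17D against IL17RD by -0.28 cycles (exact p = 0.3, adjusted 0.45), both with overlap. No pair could pass 0.05 in this test whatever the values, so these p-values do not show whether IL17C, IL17D and IL17RD differed in response.

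The genes whose pattern over the 6 plates was most like each IL-17 gene were found by the root mean square (RMS) difference of relative levels, each set to 0 at its control mean, among genes with all wells under 35 cycles. For IL17A/F1 these were lymphotoxin LTA, the lymphocyte homing receptor CCR7 and the mitophagy receptor BNIP3, with RMS differences of 0.29, 0.35 and 0.45. IL17A/F1 itself does not meet the condition on late wells. In its pattern 2 control wells are set to 35, so these likenesses depend on that limit. For IL17C they were the AP-1 subunit JUNB at 0.15, the NF-kB cofactor BCL3 at 0.20 and the chemokine CCL-Cuj at 0.22. For IL17D they were the lysosomal thiol reductase IFI30 at 0.14, the interferon regulatory factor IRF2 at 0.17 and the chemokine CXCL-C5c at 0.18. For IL17RD they were the myeloid transcription factor SPI1 at 0.051, the double-stranded RNA receptor TLR3 at 0.052 and the kinase PAK1 at 0.12. Each likeness rests on 6 plates of 2 groups that share the same reference wells, and is a description.

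The plate also held wells of genes around the IL-17 pathway, grouped here by role. Besides the 4 genes, 57 such genes were tested, of which 17 were called higher and 11 lower while 29 missed the threshold, with a median difference of -0.10 against 0.32 for all genes. These are 29.8% higher and 19.3% lower, against 37.0% and 15.4% of all genes tested, which is near the plate's own share. Of those called, 7 of 17 higher (41.2%) and 5 of 11 lower genes kept their call and direction under all 10 other scalings. Over all genes tested, 40 of 118 higher (33.9%) and 17 of 49 lower did so, which is a similar share. The pathway genes that kept it were IL22, IL23R, IL1B, tnfb, hamp1, CEBPB and JUNB among the higher, and IL6ST, STAT3, SMAD3b, MAP2K7 and MAPK10 among the lower.

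Among 5 cytokines that act with IL-17 or promote the cells that make it, 4 were higher and 0 lower, with a median difference of 1.80, against 37.0% of all genes higher. All but IL1B had a control Ct in the latest quartile, where 68.8% of genes were higher with a median of 1.62. IL22, a cytokine that acts on epithelia and is often made by the same cells as IL-17, crossed at 30.25, 29.69 and 29.86 cycles in control and at 28.57, 28.2 and 28.09 in NOD1 plates. Its groups did not overlap, and it rose 4.94-fold (95% interval 3.26 to 7.47, adjusted p = 0.00135). IL21, a cytokine of helper T cells, crossed at 30.85, 29.55 and 30.27 cycles in control and at 28.98, 28.49 and 29.02 in NOD1, and rose by 2.05 ± 0.41 (SE) on the log2 scale (adjusted p = 0.00913).

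IL12BB, a zebrafish form of the subunit shared by IL-12 and IL-23, rose by 1.80 ± 0.42 (adjusted p = 0.0158). The calls of IL21 and IL12BB were lost with quantile scaling (0.83 and 0.14) and with cyclic loess scaling (0.85 and 0.0098). IL26, a relative of IL-10 that human Th17 cells secrete, crossed at 31.44, 31.34 and 31.59 cycles in control and at 31.29, 32.25 and 30.49 in NOD1. Its groups overlapped, and it did not pass (0.77 ± 0.41, adjusted p = 0.169). It was called without NOD1 replicate 2 (1.16) and with 18S rRNA added (1.25), and its difference was -0.68 with quantile and -0.82 with cyclic loess scaling.

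Of 5 receptors of this axis, 1 was lower, 3 were higher and 1 missed the threshold, with a median difference of 0.62, against 37.0% higher and 15.4% lower among all genes. IL6R and IL-6RA, both among the 3, could be 2 assays of 1 gene. IL23R, the receptor subunit specific to IL-23, which maintains IL-17-producing T cells in mammals, crossed at 30.01, 30.7 and 30.22 cycles in control and at 28.66, 27.26 and 28.09 in NOD1 plates. Its rise of 2.97 ± 0.42 (adjusted p = 0.00297) was close in size to that of IL17A/F1 on this scale, but IL23R was at 1.87 against 1.24 with quantile and 1.82 against 1.07 with cyclic loess scaling. IL6ST, the signalling chain that IL-6 uses, crossed at 23.6, 23.62 and 24.1 cycles in control and at 26.16, 25.67 and 25.51 in NOD1, and was the 1 lower member (adjusted p = 0.0104).

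The symbols IL6R and IL-6RA, both for the ligand-binding chain for IL-6, were 0.62 and 0.88 higher (adjusted p = 0.0225 and 0.0158). Both calls were lost with the global mean, the global median, quantile and cyclic loess scaling and on raw Ct, that of IL6R also with ACTB alone, and IL-6RA was -0.14 with quantile and -0.080 with cyclic loess scaling and IL6R -0.032 on raw Ct. Leaving out 1 plate also ended them, for IL6R control replicate 1 or 3 or NOD1 replicate 2 or 3 (adjusted p = 0.0622 to 0.0723), and for IL-6RA control replicate 1 or NOD1 replicate 2 (0.053 and 0.0519). IL21R did not pass (-0.42 ± 0.26, adjusted p = 0.225), was lower with the global mean, the global median, quantile and cyclic loess scaling and on raw Ct, and was 0.068 with 18S rRNA added.

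Of 8 kinases and transcription factors with a role in Th17 cells, the T cells that make IL-17, 5 were lower, 1 was higher and 2 did not pass. The median difference was -0.48, and among all genes 15.4% were lower and 37.0% higher. All 5 lower genes had a control Ct in the 2 earliest quartiles, where 18 of 80 and 22 of 80 genes were lower. In the later quartiles 8 of 79 and 1 of 80 were lower. Of the 5 lower calls, only those of STAT3 and SMAD3b held under all 10 other scalings. STAT3, the factor activated by IL-6, IL-21 and IL-23, crossed at 23.68, 23.78 and 23.64 cycles in control and at 25.34, 25.43 and 25.23 in NOD1 plates. It fell by 0.98 on the log2 scale (SE 0.11, adjusted p = 0.00150). SMAD3b, which carries TGF-beta signals to the nucleus, was at 24.44, 24.41 and 24.32 cycles in control and at 26.57, 26.77 and 26.16 in NOD1 and was lower (adjusted p = 0.00150), as were SMAD3a (-0.59, adjusted p = 0.00837), SMAD2 (-0.63, adjusted p = 0.0191) and the cytokine receptor kinase JAK2 (-0.37, adjusted p = 0.0374).

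The JAK2 call was lost without any 1 of the 6 plates (adjusted p = 0.0555 to 0.138), and with cyclic loess scaling, B2M added or GAPDH alone, and JAK2 was 0.11 with 18S rRNA added. The SMAD2 call was lost without control replicate 1, 2 or 3 (adjusted p = 0.0612, 0.0552 and 0.0529). With 18S rRNA added and with GAPDH alone, neither SMAD2 nor SMAD3a passed. IRF4b, a zebrafish form of a factor that Th17 cells need in mice, was the 1 higher member, at 31.54, 30.57 and 32.82 cycles in control and 29.7, 29.85 and 29.57 in NOD1 (6.02-fold, adjusted p = 0.0160). Its rise was 9.17-fold with control replicate 2 left out and 3.83-fold with control replicate 3 left out, and the call was lost without NOD1 replicate 2 (adjusted p = 0.0515) and with quantile and cyclic loess scaling.

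The difference of the kinase JAK1 did not pass (4.24 ± 3.45), with the well of control replicate 1 undetermined and set to 35, and was 0.11 without that plate. SMAD4 also did not pass (-0.24, adjusted p = 0.257), was lower with the global mean, the global median and on raw Ct, and was 0.24 with 18S rRNA added. IRF4a was not tested, with a well over 35 cycles in each group. It crossed at 35.32, 33.88 and 32.77 cycles in control and at 35.13, 34.28 and 33.28 in NOD1 plates, which overlap.

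Of 14 genes that relay the IL-17 signal, 3 were higher, 2 lower and 9 did not pass, with a median difference of -0.05, against 37.0% higher and 15.4% lower among all genes. CEBPB, a C/EBP factor induced by IL-17 in mammals, crossed at 27.12, 27.16 and 26.95 cycles in control and at 26.51, 26.34 and 25.89 in NOD1 plates and rose by 1.48 ± 0.18 (adjusted p = 0.00178). NFKBIA, the NF-kB inhibitor, was higher by 0.85 (adjusted p = 0.00846), a call lost with the global mean, the global median and on raw Ct. NFKB1 was higher by 0.56 (adjusted p = 0.0390), but was -0.67 with quantile, -0.62 with cyclic loess and -0.055 with global mean scaling and -0.098 on raw Ct. The NFKB1 call was also lost with the global median, with ACTB alone, and without control replicate 1 or 2 or NOD1 replicate 2 or 3 (adjusted p = 0.104 to 0.117).

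TRAF2b, an adaptor that stabilises target mRNAs downstream of IL-17 in mammals, was lower at 26.1, 26.05 and 26.06 cycles in control against 27.64, 27.58 and 27.26 in NOD1 (-0.77 ± 0.15, adjusted p = 0.00837), except that it did not pass with 18S rRNA added (-0.28). IKBKG, the regulatory subunit of the IKK complex, was lower by a smaller amount (-0.42, adjusted p = 0.0455). That call was lost without any 1 plate other than NOD1 replicate 2 (adjusted p = 0.0848 to 0.132) and with B2M added or GAPDH alone, and IKBKG was 0.07 with 18S rRNA added. TRAF6, the ubiquitin ligase that ACT1 recruits, did not pass at -0.14 in the main fit (adjusted p = 0.46). Its values under the other scalings are not given here, so whether this result depends on the scaling is not shown. RELA and TRAF3 did not pass at -0.37 and -0.36 (adjusted p = 0.0777 and 0.0783), were called lower with the global mean, the global median and ACTB alone and on raw Ct, TRAF3 also with quantile and cyclic loess scaling, and were 0.11 and 0.13 with 18S rRNA added.

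Among 16 MAP kinase and AP-1 genes, 3 were higher, 3 lower and 10 did not pass, with a median difference of -0.24, against the same shares of all genes. JUNB, the gene most like IL17C in pattern, crossed at 25.51, 25.24 and 25.38 cycles in control and at 24.86, 24.56 and 24.46 in NOD1 plates. The p38 kinase MAPK14 was at 30.42, 30.32 and 30.24 cycles in control and 29.86, 29.67 and 29.62 in NOD1 (2.40-fold, adjusted p = 0.00154), a rise that was 0.042 with quantile and -0.044 with cyclic loess scaling. The JNK-family kinases MAPK9 and MAPK10 and their activator MAP2K7 were lower, at 0.559, 0.405 and 0.568 of the control level, and MAPK9 did not pass with 18S rRNA added. MAPK11 did not pass (0.35, adjusted p = 0.167). It was called higher without NOD1 replicate 1 (0.52), with 18S rRNA added (0.83) and with run day as a random block (0.35). With the global mean, the global median and on raw Ct, MAPK11 was -0.27, -0.17 and -0.31. MAP2K6 did not pass either, with the well of NOD1 replicate 3 at 37.13 cycles, and was -0.14 without that plate.

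Of 6 genes grouped here as possible IL-17 targets, 4 were higher and 0 lower, with a median difference of 1.81, against 37.0% of all genes higher. The grouping comes from general knowledge of other settings, and whether IL-17 acts on these genes in zebrafish embryos was not tested. All but CXCL-C1c had a control Ct in the 2 latest quartiles, where 50.6% and 68.8% of genes were higher. The antimicrobial peptide and iron regulator hepcidin (hamp1) crossed at 27.41, 26.28 and 26.93 cycles in control and at 24.85, 25.95 and 25.75 in NOD1 plates (4.02-fold, adjusted p = 0.0104). The zebrafish TNF paralog tnfb was at 29.37, 28.56 and 28.53 cycles in control and 27.55, 27.74 and 27.12 in NOD1 (4.02-fold, adjusted p = 0.00297). The cytokine tnfa was at 29.98, 29.64 and 29.84 against 28.9, 27.57 and 27.18 cycles (6.04-fold, adjusted p = 0.00719), although it did not pass with quantile scaling (adjusted p = 0.0839). IL1B, also counted among the cytokines above, was 3.07-fold higher (adjusted p = 0.00348).

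The neutrophil chemokine IL8, a classical IL-17 target, crossed at 30.12, 28.57 and 30.05 cycles in control and at 30.6, 29.05 and 28.16 in NOD1 plates. Its groups overlapped, and it did not pass (0.97 ± 0.77, adjusted p = 0.329), with -0.25 under quantile and -0.22 under cyclic loess scaling. The chemokine CXCL-C1c did not pass either (-0.43 ± 0.38, adjusted p = 0.373), was called lower with the global mean and quantile scaling and on raw Ct, and was 0.056 with 18S rRNA added.

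IL17RD acts on FGF and Ras signalling, and of 9 genes of that list 1 was higher and 0 were lower, with a median difference of -0.24, against 37.0% and 15.4% of all genes. The 1 higher gene was MAP2K2b, a MEK kinase also counted among the MAP kinases, at 23.42, 23.43 and 23.26 cycles in control and 23.36, 23.28 and 23.09 in NOD1. Its difference of 0.78 ± 0.13 (adjusted p = 0.00451) was as large as that of IL17RD and, like it, was lost with the global mean, the global median and on raw Ct. EGFR and MAP2K1, at -0.52 and -0.31, missed the threshold (adjusted p = 0.0688 and 0.142). Both were called lower with the global mean, the global median and ACTB alone and on raw Ct, EGFR also with quantile and cyclic loess scaling and without control replicate 3 (-0.66), and MAP2K1 was 0.18 with 18S rRNA added.

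**Figure D5:**
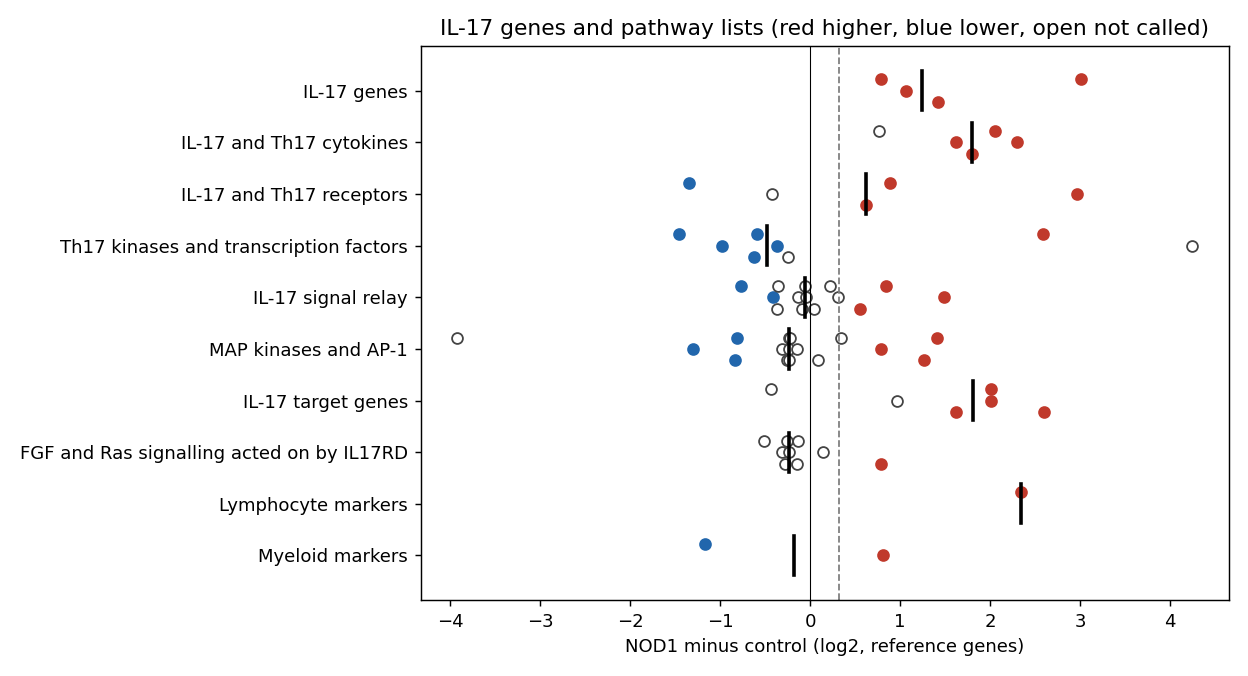
Difference between NOD1 and control (horizontal axis, log2 scale relative to the reference genes) of the 4 IL-17 genes (top) and of each tested gene of the pathway and marker lists, red where called higher, blue where called lower and open where not past adjusted p under 0.05. Black bars are list medians and the dashed line is the median of all tested genes, 0.32. The Th17 kinases and transcription factors have 5 blue points, against 0 among the cytokines and the target genes. All 5 are genes of early control Ct, where lower calls were more common on the plate.

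Few genes of the lists of cell markers were on the plate. The lymphocyte list had 1 of its genes, IL7R, which crossed at 30.68, 28.99 and 29.71 cycles in control and at 28.05, 28.66 and 27.59 in NOD1 plates and was higher (2.35 ± 0.50, adjusted p = 0.0111), a call lost with quantile and cyclic loess scaling. The myeloid list had 2. The macrophage receptor CSF1R was lower at 25.9, 26.26 and 25.95 against 27.69, 28.25 and 27.63 cycles (-1.17 ± 0.16, adjusted p = 0.00271). SPI1, whose pattern was the most like IL17RD, was higher (0.81 ± 0.19, adjusted p = 0.0146), although this was lost without control replicate 3 (adjusted p = 0.0507), on raw Ct, and with the global mean, the global median and quantile scaling. The 2 myeloid markers thus differed in opposite directions. Some leukocyte genes outside these lists, named after their values were seen, also went both ways. IL2RGA (2.27) and IL2RB (1.13) were called higher, CSF2RB (-1.84) and CD40 (-1.22) lower, and PTPRC (-0.01) and CD40LG (1.06) did not pass. Other leukocyte genes of the plate are left out, so this split is no measure of how such genes went as a whole. The part of cell composition in the IL-17 results was not tested.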

How the data were processed

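Ct was exported from SDS software with an automatic baseline and a manual threshold of 0.2, per the file headers. The authors deposited the Ct of 336 wells per plate as a raw score without normalization. Their second table, deposited with each group's mean delta Ct (a log2 quantity), the fold or ratio of NOD1 over control and a p-value, served only for the layout and 1 alternative. Gene wells under 35 cycles numbered 314 to 321 per plate, and the genomic DNA control wells gave no Ct. Whether those control wells can detect zebrafish DNA or the injected plasmid was not tested. The number of plates limits the precision.

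Here Ct over 35 or undetermined was set to 35, and the reference mean minus Ct was fitted with limma 3.58.1 (R 4.3.3, lmFit and eBayes, two-sided) on all 6 plates. Genes under 35 cycles in all 3 plates of a group were kept, 319 of 326, and adjusted by Benjamini-Hochberg. Exact permutation tests used SciPy 1.17.1. The script was checked on simulated data. The limma p-values set each difference between the groups against the spread between these samples, moderated over all genes tested. That spread may be partly technical.

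Replicates of the same number showed little shared deviation (correlations 0.113, 0.031 and -0.022), and the main fit did not pair them. Whether they were paired by design is not known. The 4 genes and the lists were chosen with earlier results of these data known. The genes named are the 4, nod1, the reference genes, per list up to 6 called genes and the 2 uncalled genes with the largest difference, and 3 similar genes for each of the 4. IRF4a, TRAF6 and the leukocyte genes outside the marker lists were named in addition, after their values were seen. Their values under the alternatives are not given. Alternatives covered scaling, ceiling, filter, test, run day and each plate left out.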

Additional observations from a re-analysis of the deposited data

How the results depend on the processing

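None of the 4 IL-17 genes changed direction under any of the 23 alternatives, but not all of these could change it. No filter, the replicate block, the authors' p-values and eBayes with trend leave the estimated difference as it is. IL17A/F1 kept an adjusted p under 0.05 throughout, but it met the filter only through the NOD1 plates and 2 of its 3 control values were set to 35, so this says nothing of how stable the call is. IL17C did not pass with quantile (0.13) or cyclic loess scaling (0.23), IL17D with quantile scaling (0.41) or on raw Ct (0.41), and IL17RD with the global mean (0.17), the global median (0.26) or on raw Ct (0.13). Leaving out 1 plate gave 2.84 to 3.23 for IL17A/F1, 1.25 to 1.68 for IL17C, 0.92 to 1.17 for IL17D and 0.65 to 0.97 for IL17RD, which alone lost its call, without control replicate 2 or 3. Whole-plate scalings remove the later reference wells of the NOD1 plates or the dependence on Ct by construction. Adding 18S rRNA, itself lower in NOD1 (-1.95), raises the difference of every gene by construction.

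Against 118 genes higher on the plate, the global mean gave 76, quantile 59, cyclic loess 66, 18S rRNA added 195 and raw Ct 71. Against 49 lower, the global mean gave 140, the global median 114, quantile 78, 18S rRNA added 18, GAPDH alone 25 and raw Ct 134. Without 1 plate there were 95 to 115 higher and 31 to 45 lower. Higher calls were 70.7% of all calls. Under the global mean they were 35.2%, under the global median 40.9%, under quantile scaling 43.1%, under cyclic loess 47.8%, after adding 18S rRNA 91.5%, for ACTB alone 59.6%, for GAPDH alone 83.6% and for raw Ct 34.6%. Against 17 pathway genes higher, quantile gave 10, cyclic loess 11 and 18S rRNA added 27. Against 11 lower, the global mean gave 33, the global median 30, quantile 18, 18S rRNA added 5, ACTB alone 21, GAPDH alone 7, raw Ct 32 and run day as a random block 18.

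Changes of sign among single pathway genes were those of IL26 with quantile (-0.68) and cyclic loess (-0.82), IL-6RA with quantile (-0.14) and cyclic loess (-0.080), IL6R on raw Ct (-0.032), NFKB1 with the global mean (-0.055), quantile (-0.67), cyclic loess (-0.62) and raw Ct (-0.098), MAPK14 with cyclic loess (-0.044), MAPK11 with the global mean (-0.27), the global median (-0.17) and raw Ct (-0.31), IL8 with quantile (-0.25) and cyclic loess (-0.22), and, with 18S rRNA added, IL21R (0.068), JAK2 (0.11), SMAD4 (0.24), IKBKG (0.070), RELA (0.11), TRAF3 (0.13), CXCL-C1c (0.056) and MAP2K1 (0.18). The cause of these changes was not tested.

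With the replicate number as a block the IL-17 genes were called as before (adjusted p = 0.00412 for IL17A/F1, 0.00822 for IL17C, 0.0161 for IL17D and 0.042 for IL17RD), and 111 genes were higher and 40 lower, while IL-6RA, NFKB1, JAK2 and IKBKG did not pass. Run day as a random block, the authors' p-values and eBayes with trend moved other borderline pathway calls. With run day as a random block the estimated correlation was -0.335 and the 4 genes stayed called. Their adjusted p became smaller, for IL17RD 0.00213 against 0.0168 in the main fit. Each run day held plates of a single group, so the block cannot separate run from group, and these calls say nothing of a run effect. The within-plate distances between the IL-17 genes, left out plate by plate as an alternative chosen after seeing the data, kept their direction. Wells near 35 cycles limit what can be said of IL17A/F1 in control embryos.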
